A study of Populus trichocarpa with 12 samples.

Results

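Among the genes expressed in the young wood of watered black cottonwood, Populus trichocarpa, a small set was low after 5 days without water and stood close to its starting level again after 7 days. These transiently lowered genes number 109 of the 41335 gene identifiers in the deposited count table. They were chosen by their measured levels: a mean of at least 5 CPM (counts per 1000000 counts of a library) on day 0, a day 5 mean at least 1.5 log2 units below day 0, a day 7 mean within 0.3 log2 units of day 0, and all 4 day 5 libraries below the other 8. Log2 levels are log2(CPM + 1) averaged over the 4 libraries of a day. Since the rule used all 3 days, the dip and the return are given as a description. Calls of a count model for these contrasts are printed beside the share called over all genes where it was computed. Nothing is read from them.

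RNA-seq libraries were prepared from stem differentiating xylem, the layer of forming wood scraped off debarked stems near the ground, of trees grown for 3 months in a greenhouse. Group day0 (4 libraries) came from irrigated trees, with soil at 74% and xylem at 80.6% water. Group day5 (4 libraries), called mild drought, had soil at 33% and xylem at 75.3% water, and group day7 (4 libraries), called severe drought, had 29% and 74.3%. No genotype beyond the species, no agent other than water withdrawal and no pooling of trees are given in the labels, which speak of several plantings without saying which one each library came from. Unwatered days and tree age at harvest cannot be told apart, because each day is 1 group.

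Differentiating xylem holds cells that leave the cambium, expand, lay down cellulose, xylan and lignin in a thick secondary wall, and then, in vessels and fibres, die. Drought is known to slow this growth: turgor falls, abscisic acid rises, and transcript levels of many genes shift, some for as long as water is short and others only while the tissue adjusts. The count table names genes only by Potri identifiers, and 0 of the 41335 matched an entry of the RefSeq gene table used here, so no product, pathway or role is given for any member, and the label of the tissue was not checked against marker genes.

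Total counts lay between 9351583 and 16035331 per library on day 0, between 12937341 and 19223816 on day 5, and between 12953393 and 17730028 on day 7. Nothing in the labels says whether libraries of a day came from different trees, so spread between libraries may be partly technical. Libraries of day 7 were unequal among themselves. Over the 18969 genes with at least 5 CPM on day 0, replicates 1 and 4 of day 7 differed by a mean of 0.23 log2 units per gene, whereas the other pairs of day 7 libraries differed by 0.38 to 0.55. On day 0 the pairs differed by 0.24 to 0.59, with replicates 1 and 2 farthest apart, and on day 5 by 0.29 to 0.40.

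A return of this kind was rare among genes that fell as far. Of the 18969 genes of the day 0 level, 2306 lay at least 1.5 log2 units lower on day 5. Of those, 1553 (67.3%) were still at least 1.5 lower on day 7, 569 (24.7%) lay between there and 0.3 below day 0, 124 (5.38%) were within 0.3 of day 0 and 60 (2.60%) had passed more than 0.3 above it. Overlap between libraries removed 15 of the 124 and left the 109. With the day 5 conditions turned upside down, for genes that peaked on day 5 and came back, 59 genes were picked. The day 0 limit of 5 CPM was kept there, so peaks from lower levels were left out. The number of genes that rose as far is not given, so 59 and 109 are not set against each other.

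The limits of the rule cut through a continuous range. The 2 members nearest to the dip limit had day 5 differences of -1.503 and -1.505, and the nearest genes outside it had -1.4992 and -1.4985, with 888 genes failing that condition alone. At the return limit, 0.2991 and 0.2979 lay inside and 0.3028 and 0.3031 outside, and 449 genes failed there alone. The lowest day 0 means inside were 5.08 and 5.71 CPM, against 4.73 and 4.72 CPM outside, where 7 genes failed. The narrowest gaps between the highest day 5 library and the lowest other library were 0.05 and 0.08 log2 units inside.

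**Figure D1:**
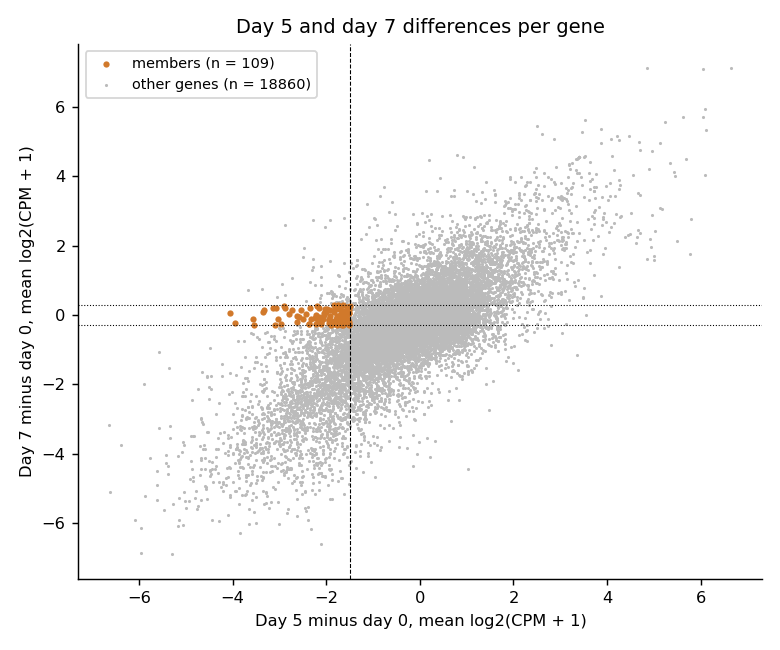
Each point is 1 of 18969 genes with a day 0 mean of at least 5 CPM, placed by its day 5 difference (x) and day 7 difference (y) from day 0 in mean log2(CPM + 1). The 109 members (orange) fill the strip left of the dashed line at -1.5 and between the dotted lines at -0.3 and 0.3, while most genes left of that line, 1553 of 2306, lie at or below -1.5 on the y axis.

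On day 5 the members held a median of 24.1% of their day 0 mean CPM, with a range from 2.00% to 34.8%. The median difference was -1.79 log2 units, with quartiles of -2.23 and -1.64 and the deepest at -4.05. In 41 members the difference was -2 or lower, and in 10 it was -3 or lower. Over all genes of the same day 0 level the median was -0.20, with quartiles of -0.83 and 0.36. In bulk tissue a fall of this kind does not tell fewer cells of a type from less RNA per cell.

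Fitted with edgeR over all 26943 tested genes, all 109 members were called lower on day 5 than on day 0, where 28.8% of tested genes were, and the rule had used that contrast. Their log2 fold changes ran from -5.53 to -1.42 with a median of -1.94, against a median of -0.01 over all tested genes. For day 7 against day 5, all 109 were called higher, with 22.3% of tested genes called so and log2 fold changes from 1.35 to 5.78 around a median of 2.10. Lying wholly below the other 8 libraries on day 5 was itself a condition of the rule, and 10.7% of the 18969 genes met it.

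The members spanned low to very abundant transcripts. Their day 0 means lay between 5.08 and 1502 CPM with a median of 24.9 CPM, next to a median of 24.4 CPM over all genes of the level. A mean of at most 20 CPM was found in 44 members, and 17 exceeded 100 CPM. The median day 5 difference in mean log2(CPM + 1), a scale that understates changes of low genes, was -1.78 in the 44 low members, -1.79 in the 48 members between 20 and 100 CPM, and -1.90 in the 17 abundant ones. As edgeR log2 fold changes the medians were -2.16, -1.79 and -1.88 in the same order. Summed over the 4 day 5 libraries, the members had 13 to 22283 counts, with a median of 333, so the dip of the rarest rests on few reads.

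Together the members took 1.05% ± 0.25 (SD, n = 4) of every library's counts at the start (day 0), 0.271% ± 0.0665 on day 5 and 1.01% ± 0.294 on day 7. By library the share was 1.30%, 0.731%, 0.980% and 1.19% on day 0, 0.287%, 0.354%, 0.198% and 0.245% on day 5, and 0.847%, 1.20%, 1.30% and 0.678% on day 7. The highest day 5 library lay below the lowest library of the other days, and the lowest of all other libraries was replicate 4 of day 7. The 6 most abundant members supplied 52.7% of the member counts at day 0, at day 5 58.9% and at day 7 50.2%.

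**Figure D2:**
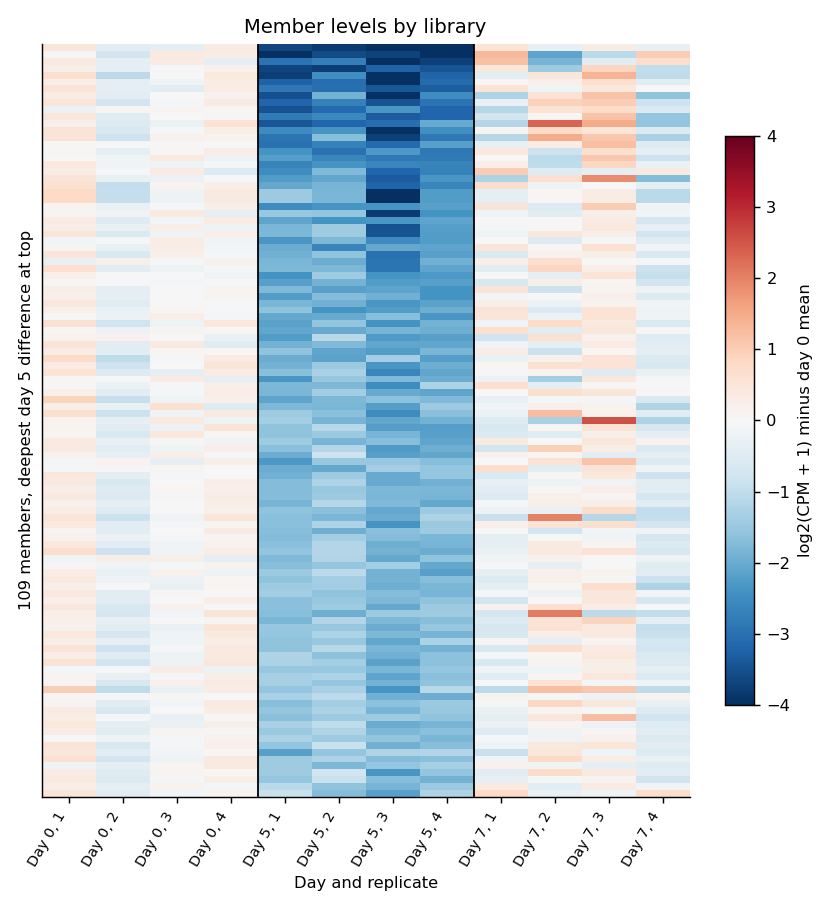
Rows are the 109 members ordered by their day 5 difference, columns are the 12 libraries by day and replicate, and colour is log2(CPM + 1) minus the gene's day 0 mean (blue lower, red higher, colours end at -4 and 4). The 4 day 5 columns are blue throughout. On day 7, replicate 4 is mostly pale blue, with 59 members below their day 0 range, and replicate 3 holds the most members above it, 48. These range counts were made for members only.

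On the log2(CPM + 1) scale the deepest dip, and also the largest gain between day 5 and day 7, belonged to Potri.004G019300. Its libraries had 31.7, 16.6, 17.2 and 29.0 CPM in the day 0 libraries, 0.907, 0.676, 0 and 0.309 CPM on day 5 and 33.8, 17.7, 27.9 and 18.3 CPM on day 7. The gene went nearly silent on day 5, with no read among the 16392044 of replicate 3, which allows up to 0.183 CPM by counting error, and every day 7 library lay within or just above the day 0 range. Its edgeR log2 fold change was -5.53 ± 0.58 (SE) between day 5 and day 0, 5.75 ± 0.58 between day 7 and day 5 and 0.22 ± 0.44 between day 7 and day 0.

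Potri.007G014200 was the most abundant member. Its levels were 2020, 957, 1281 and 1748 CPM on day 0, 411, 534, 132 and 306 CPM on day 5 and 1294, 1959, 1707 and 858 CPM on day 7. Mean levels were 1502 CPM ± 474 (SD, n = 4) on day 0, 346 CPM ± 170 on day 5 and 1454 CPM ± 483 on day 7, so the group means of days 0 and 7 differed by far less than their SDs. Log2 fold changes were -2.02 ± 0.41 (SE) between day 5 and day 0 and 0.13 ± 0.39 between day 7 and day 0.

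Next in abundance, Potri.003G205500 had 1451, 682, 954 and 1418 CPM on day 0, 367, 442, 309 and 298 CPM on day 5 and 690, 1303, 1419 and 576 CPM on day 7. On day 7, replicate 1 lay at the lower end of the day 0 range, replicate 4 below it and replicates 2 and 3 in its upper part. The log2 fold change was -1.57 ± 0.33 (SE) between day 5 and day 0 and 1.57 ± 0.33 between day 7 and day 5. Further members named below were singled out after their values were seen.

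The evenest member was Potri.004G160800, with the smallest summed SD over the 3 days. Its libraries had 9.95, 9.98, 12.7 and 8.68 CPM on day 0, 2.95, 2.97, 2.14 and 2.86 CPM on day 5 and 8.88, 8.98, 12.2 and 7.56 CPM on day 7. The replicates of a day lay close together, and replicate 3 was the highest of its day on days 0 and 7 and the lowest on day 5. Potri.010G003200 was close between days 0 and 7 at a higher level, with 178, 162, 177 and 168 CPM on day 0, 68.9, 82.7, 44.2 and 42.6 CPM on day 5 and 189, 165, 148 and 183 CPM on day 7.

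**Figure D3:**
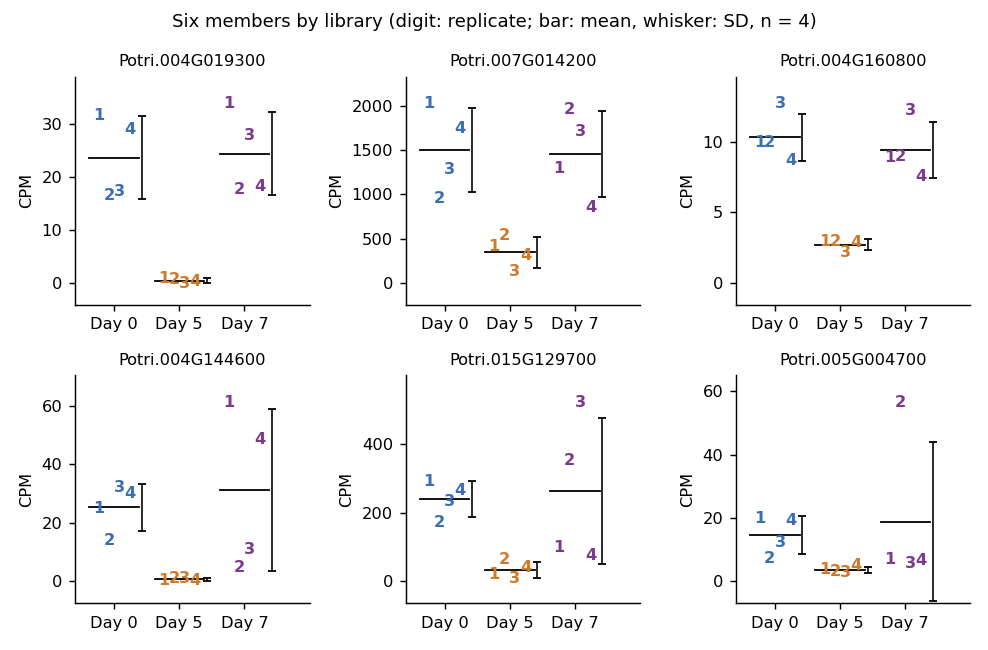
CPM of 6 members by day, where each digit is the library of that replicate number, the bar is the mean and the whisker the SD over 4 libraries, on a linear axis per gene. Day 5 libraries sit below all others in each panel; on day 7 the libraries of the top row cover much the same range as on day 0, while those of the bottom row separate widely, up to a single library at 56.5 CPM in Potri.005G004700.

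The closeness of day 7 to day 0 is a property of group means of log2(CPM + 1) and of the chosen scaling. In mean CPM the members lay on day 7 at 76.4% to 209% of day 0, with a median of 99.9%. Their edgeR log2 fold changes between day 7 and day 0 ran from -0.20 to 1.24, with a median of 0.16. Divided by column sums, 39 members were above and 70 below their day 0 mean on day 7, with a median difference of -0.10 log2 units. The median over all genes of the level was -0.21 on that scale, which places the members 0.10 above it. With TMM scaling (trimmed mean of M-values, which sets library sizes by the bulk of genes) the member median was 0.05, 68 members were above and 41 below, and the median of all genes was -0.05. The direction for day 7 against day 0 therefore depends on the scaling.

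In the edgeR fit of day 7 against day 0, 0 of the 109 members were called, where 51.1% of the tested genes were, and the rule used this contrast too. With 1 library left out 0 to 4 were called: 4 without replicate 2 of day 7, 2 without its replicate 4, and 1 without its replicate 1 or 3. Of all tested genes, 50.2% were called without replicate 2, 47.0% without replicate 4, 45.0% without replicate 1 and 47.6% without replicate 3. At an unadjusted p under 0.05 there was 1 with all libraries, with no share over all genes computed. With all libraries, limma-voom called 0 of the members and 49.0% of tested genes. DESeq2 called 0 of the 108 members it gave an adjusted p, and 54.9% of tested genes. The standard errors had a median of 0.31 log2 units, and in 70 members the 95% interval of the fold change stayed within 1 log2 unit of 0 on both sides. In the other 39 an end of the interval reached past 1 or past -1 log2 unit. It reached above 1 only in 34 of them, below -1 only in 2, and past both in 3. Since the rule kept only genes with day 7 means near day 0, these counts describe how wide the intervals were. They are no test of the return, and intervals were not counted over all genes.

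Libraries of day 7 did not all return alike. Set against the range of the 4 day 0 libraries, replicate 1 had 28 members below it, 61 within and 20 above, replicate 2 had 21, 55 and 33, replicate 3 had 7, 54 and 48, and replicate 4 had 59, 45 and 5. These range counts were made for members only, with no share over all genes beside them. Some values outside a range of 4 libraries arise from ordinary spread. Replicate 4 was the lowest day 7 library in 63 members and the highest in 0, and replicate 3 was the highest in 54 and the lowest in 5. Over all genes of the level those shares were nearer to even, with replicate 4 lowest in 28.9% and highest in 26.8%, and replicate 3 highest in 19.5%. Day 0 was uneven as well, since replicate 2 was its lowest library in 87 members, against 56.3% of all genes.

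**Figure D4:**
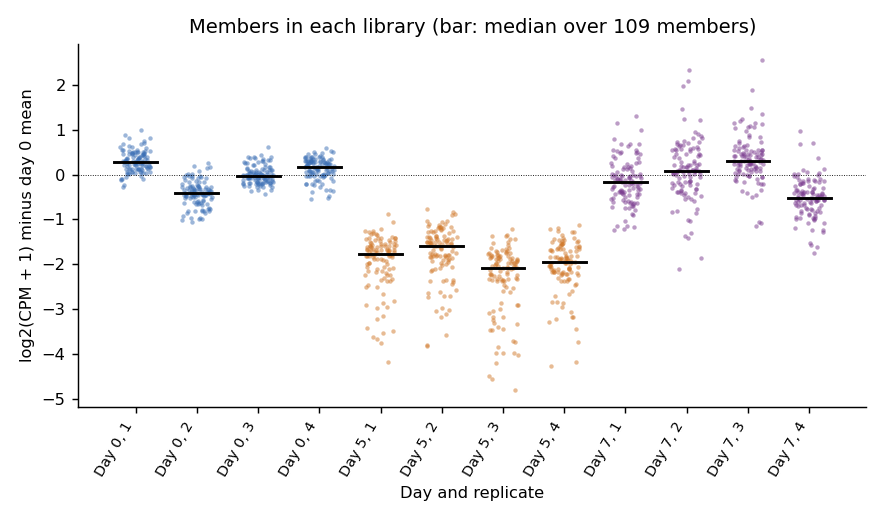
Each point is 1 of the 109 members in 1 library, as log2(CPM + 1) minus its day 0 mean, and black bars are medians. All day 5 points lie below 0, and the day 7 libraries scatter more widely around 0 than those of day 0, with replicate 4 shifted down (lowest of its day in 63 members) and replicate 3 shifted up (highest in 54).

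Members spread more on day 7 than on the other days. The SD of log2(CPM + 1) over the 4 libraries of a day had a median over members of 0.35 on day 0, 0.34 on day 5 and 0.51 on day 7, against 0.25, 0.22 and 0.25 over all genes of the level. The day 7 SD exceeded the day 0 SD in 80 members (in 51.6% of all genes). At least a 4-fold range among the day 7 libraries was found in 18 members, and in 9.13% of all genes. That share also counts genes without a read in a day 7 library, so it is an upper figure. On day 0 only 1 member ranged as far, with no share over all genes computed. Genes that fell as far by day 5 and stayed low on day 7 had median SDs of 0.41, 0.46 and 0.48 on days 0, 5 and 7, so spread above that of all genes was measured in them as well.

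**Figure D5:**
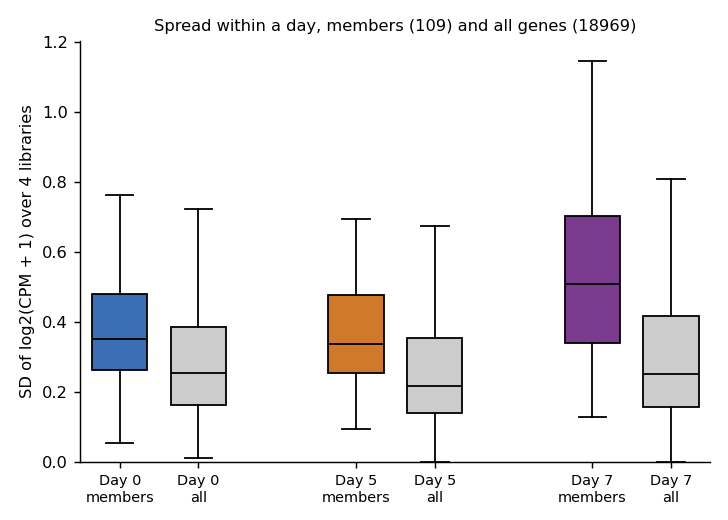
SD of log2(CPM + 1) over the 4 libraries of each day, for the 109 members (coloured) and all 18969 genes of the level (grey); boxes give quartiles and median, whiskers reach the last value within 1.5 box heights and points beyond are not drawn. The member median is 0.51 on day 7, against 0.25 over all genes on that day.

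High and low libraries of day 7 differed between members. Potri.015G129700 had 290, 170, 232 and 265 CPM on day 0, 19.4, 62.2, 9.40 and 41.5 CPM on day 5 and 99.8, 351, 520 and 75.9 CPM on day 7. Replicates 2 and 3 of day 7 were above its whole day 0 range and replicates 1 and 4 below it. The reverse was seen in Potri.004G144600, with 61.2, 4.80, 10.9 and 48.5 CPM on day 7, where replicates 1 and 4 were above the day 0 values of 24.9, 14.0, 32.1 and 30.2 CPM and replicates 2 and 3 below them. Its day 5 levels were 0.378, 1.09, 0.915 and 0.309 CPM.

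Replicate 1 was the highest day 7 library in 20 members, replicate 2 in 35 and replicate 3 in 54. Deviations of the 20 from their day 7 mean ran against those of the other 89, with a median Pearson r of -0.18 between the sets, although the sets were defined on these values. In the 8 libraries of days 0 and 5, which did not define them, the median r was 0.46 between the sets, 0.37 within the 20 and 0.51 within the 89.

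Some members owed their return to 1 library. The neighbouring identifiers Potri.005G004700 and Potri.005G004800 had 56.5 and 44.5 CPM in replicate 2 of day 7, where the other day 7 libraries had 5.58 to 6.79 and 4.17 to 5.56 CPM. Without that library their day 7 differences from day 0 were -1.01 and -0.91 log2 units in place of -0.26 and -0.16. Potri.012G085800 had 37.5 CPM in replicate 3 of day 7 and 3.63, 1.67 and 1.77 CPM in the others, and its difference without replicate 3 was -1.02 in place of -0.13. Potri.008G130400, the member with the largest day 7 SD, had 13.0, 158, 87.8 and 9.64 CPM on day 7, against 35.5, 20.9, 25.5 and 46.8 CPM on day 0, so no day 7 library lay inside its day 0 range.

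Membership itself leaned on single libraries. Recomputed with each of the 12 libraries left out in turn, the rule picked 80 to 147 genes and shared 68 to 107 of them with the 109, and 18 members were picked every time. The dip limit was kept throughout by 80 members and the return limit by 27. Without replicate 2 or replicate 3 of day 7, 41 members moved past the return limit in each case, and without replicate 2 of day 0, 38 did. Under TMM, RLE and upper-quartile scaling 75 of the 109 were picked each time.

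Levels of the members moved together within a day. Measured as deviations from the mean of the day over all 12 libraries, 5886 pairs of members had a median Pearson r of 0.44, with 83.8% of pairs positive, while all pairs of genes of the level had a median r of 0.07. All pairs share the same 12 libraries and column sums, so each r is a description. Genes that fell as far and stayed low, which also spread more than all genes, were not compared. Within single days the medians were 0.76 on day 0, 0.43 on day 5 and 0.56 on day 7, over 4 libraries each, against 0.21, 0.08 and 0.02 for all genes.

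Position, read from the chromosome number that opens a Potri identifier, was not used by the rule. Chromosome 8 held 16 members, or 14.7%, with 6.03% of the genes of the level, and chromosome 5 held 11, or 10.1%, with 6.51%. The 11 include Potri.005G258400 and Potri.005G258500, which have nearly equal counts and are best read as 1 measurement. Chromosome 18, with 719 genes of the level, held 0 members, and chromosome 1, the one with the most genes, held 10. Of 110 genes of the level next to a member in the table, 8 of them members themselves, 21 (19.1%) lay at least 1.5 log2 units lower on day 5, against 12.2% of all genes of the level. Among the 102 that were not members it was 13 (12.7%), against 11.6% of all other genes.

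Consecutive identifiers formed 4 pairs of members. Potri.005G258400 and Potri.005G258500 had counts within 2% of each other in every library, with a largest difference of 9 counts, and means of 263 CPM each on day 0, 54.1 and 54.3 CPM on day 5 and 210.5 and 211 CPM on day 7. Whether the same reads were counted for both was not tested, and the pair is best read as 1 measurement. No other member had such a double among the genes of the level. Deviations within the other 3 pairs correlated at r = 0.96, 0.97 and 0.96 over the 12 libraries, with levels that differed. The 0.97 is that of Potri.005G004700 and Potri.005G004800, which share the single high library, replicate 2 of day 7. Their r without that library was not computed.

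One of those pairs has a further neighbour with another course. Potri.004G019200, beside Potri.004G019300, had 14.0, 7.30, 6.85 and 11.9 CPM on day 0, 0.453, 0.312, 0 and 0.0773 CPM on day 5 and 14.5, 8.37, 13.1 and 9.71 CPM on day 7, much like its partner at a lower level. The next identifier, Potri.004G019400, is not a member. It had 17.4, 11.7, 13.3 and 14.1 CPM on day 0 and no count in any day 5 library, and reached only 1.78, 1.45, 1.86 and 0.463 CPM on day 7. All 3 were nearly or wholly silent on day 5, and on day 7 this neighbour differed from day 0 by -2.697 log2 units, against 0.20 and 0.05 for the pair.

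The remaining pair, Potri.008G172100 and Potri.008G172200, had means of 14.6 CPM ± 3.22 and 7.36 CPM ± 1.46 (SD, n = 4) on day 0, 3.05 CPM ± 0.820 and 1.97 CPM ± 0.706 on day 5 and 12.8 CPM ± 4.55 and 7.73 CPM ± 2.16 on day 7. On day 7 both had their lowest value in replicate 2, at 7.46 and 5.18 CPM, and their highest in replicate 1, at 17.7 and 9.73 CPM. Without names for the identifiers, whether neighbours are copies of one gene was not tested.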

How the data were processed

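Stem differentiating xylem of Populus trichocarpa was sequenced on days 0, 5 and 7 without water (4 libraries each, grouped by library title). The authors deposited raw counts for 41335 identifiers; TopHat is named in the submitters' processing notes, and its version, genome build, counter and strand setting are not given there, so overlapping and near-identical genes may share reads. CPM was count over column sum times 1000000, with a pseudocount of 1 before log2. The count model was edgeR 4.0.16 (R 4.3.3): filterByExpr with a minimum count of 10, TMM, glmQLFit and glmQLFTest with 1 mean per day over all 12 libraries, and Benjamini-Hochberg adjustment over 26943 genes at 0.05. Standard errors are the absolute log2 fold change divided by the square root of the F statistic. limma-voom (limma 3.58.1) and DESeq2 1.42.0 were alternatives. The steps were tried on simulated data. Figures used matplotlib 3.10.9.

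The members, the lists and the tests were chosen with earlier results of these data known. Named members are the deepest dip, the most abundant, the largest gain by day 7 (dip and gain on the log2(CPM + 1) scale) and the next by day 7 level; all others were singled out afterwards. Lists by product name, markers and promoter motifs were not used here, since no identifier was paired with a name. Libraries of 1 day differed by more than sampling noise in all cases (reduced chi-square from 14.8 to 113). The 3-count limit covers counting error only, while the edgeR intervals include the spread between libraries.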

Additional observations from a re-analysis of the deposited data

Results flagged for a closer look

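In 45 groups of 4 libraries examined (2 summaries and the singled-out members on each day), 4 had 1 library set apart from the rest at Dixon's 95% critical value, which chance gives in about 1 in 20 independent groups; these groups share libraries and some members were picked for such a jump. Potri.005G004700 had 56.5 CPM in replicate 2 of day 7, against 5.58 to 6.79 CPM in the other 3, and its neighbour Potri.005G004800 had 44.5 CPM there, against 4.17 to 5.56 CPM. Potri.012G085800 had 37.5 CPM in replicate 3 of day 7, against 1.67 to 3.63 CPM. Potri.004G160800 had 2.14 CPM in replicate 3 of day 5, against 2.86 to 2.97 CPM.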

How the results depend on the processing

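The number of members was 355 with a dip limit of -1, 41 with -2, 65 with a return limit of 0.2 and 194 with 0.5, and 80 to 147 with 1 library left out. It was 93 to 130 under the other scalings, pseudocount, day 0 level and overlap settings. Of the 109, all chosen on these contrasts, 105 to 109 were called lower on day 5 with a library left out. In those fits 52.76% to 59.99% of tested genes were called in either direction. Called higher on day 7 than on day 5 were 108 or 109 members, beside 33.18% to 42.89% of tested genes in either direction. Under the other settings 106 to 109 members were called on each contrast. There DESeq2 gave 1 member no adjusted p and called the other 108. Of tested genes, those settings called 44.96% to 61.89% on day 5 against day 0, in either direction. On day 7 against day 5 they called 29.36% to 47.07%. Members called on day 7 against day 0 numbered 0 to 4 with a library left out, beside 44.7% to 51.3% of tested genes. The 4 were called without replicate 2 of day 7. With the replicate number as a block 107 and 107 were called, where 56.4% and 39.9% of tested genes were called in either direction. On day 7 against day 0 that fit called 0 members and 48.6% of tested genes. Libraries that share only a number had correlations of deviations between -0.27 and 0.48. In 10 of 24 cases a library correlated best, among the 4 libraries of another day, with the one of its own number. Some cases of this kind arise without any pairing. Whether a number stands for a shared tree or planting was not tested. The member share ranged from 0.966% to 1.16% on day 0, 0.243% to 0.295% on day 5 and 0.908% to 1.12% on day 7. Members above day 0 on day 7 numbered 39, 68 with TMM, 63 with RLE and 53 with upper-quartile scaling, a comparison added after seeing the data. Members with few day 5 counts are limited by depth.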
